A study of Mus musculus with 6 samples.

Results

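The 10 collagen genes described here are Col1a1, Col1a2, Col3a1, Col5a1, Col5a2, Col6a1, Col6a2, Col6a3, Col4a1 and Col4a2. They were chosen by name among 18194 genes measured in cultured mouse spermatogonial stem cells, and all 10 had a value on every array. Collagens are secreted proteins whose chains wind into stiff helices outside the cell. Types I, III and V build the fibrils of connective tissue, type VI forms beaded filaments around cells, and type IV is the network of basement membranes. In a testis these chains come mainly from fibroblasts, peritubular cells and other supporting cells, and cultured embryonic fibroblasts are a rich source of them.

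The testis cells were taken from ICR mice, male and 3 to 5 days old, and the labels name no mutation, transgene or drug treatment of the stem cells. The groups were mSSC, labelled multipotent, iSSC, labelled intermediate, and SSC, labelled unipotent germ-line stem cells, with 2 arrays each and n = 2 for every group mean below. Per the labels, clumps were moved onto layers of mouse embryonic fibroblasts stopped from dividing with mitomycin, replated on fresh fibroblasts every 5 to 7 days, and the 3 kinds were collected by hand by their shape. Colonies of flattened or embryonic-stem-like shape were kept in germ stem cell medium or moved to KSR-mES medium, and no label ties an array to a medium or to an early (0 to 1) or middle (9 to 10) passage. Feeder cells were thus present in these cultures, and somatic testis cells may have been. The arrays do not say which cells a collagen transcript came from. Whether the 2 arrays of a kind came from separate cultures or animals is not stated, so a p-value here covers no more than the scatter between these arrays, which may be technical.

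Values are log2 RMA signals, on which 1 unit is a 2-fold difference, and changes are differences of group means ± SE. The median of an array lay between 5.83 and 5.93 and its lower quartile, taken here as near background, between 4.23 and 4.38. All 10 collagen genes lay above the lower quartile on all 6 arrays. Probe sets of different genes bind with different strength, so levels are compared between arrays and not between genes. Markers of the labelled states were checked first. Pluripotent cell markers had a median of 11.83 and 12.34 in mSSC, against 7.53 and 8.06 in iSSC and 6.55 and 7.37 in SSC. Spermatogonia markers had a median of 7.41 and 7.59 in mSSC, against 10.88 and 10.94 in iSSC and 10.12 and 10.35 in SSC.

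The comparison of mSSC with SSC asks what differs between the multipotent and the unipotent cultures, and in it every one of the 10 collagen genes fell. The changes ran from -5.06 for Col6a1 to -3.03 for Col4a1, or from 33.4-fold to 8.19-fold lower in mSSC. Lower values at an adjusted p under 0.05 (limma, adjusted over all genes) were found for 10.6% of the 18194 genes tested, and higher ones for 8.22%. Both mSSC arrays were below both SSC arrays for all 10 collagens and for 26.3% of all genes. The median change was -4.0 over the 10 collagens and 0.08 over all genes. In bulk RNA fewer collagen-producing cells and less collagen RNA per cell cannot be told apart.

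**Figure D1:**
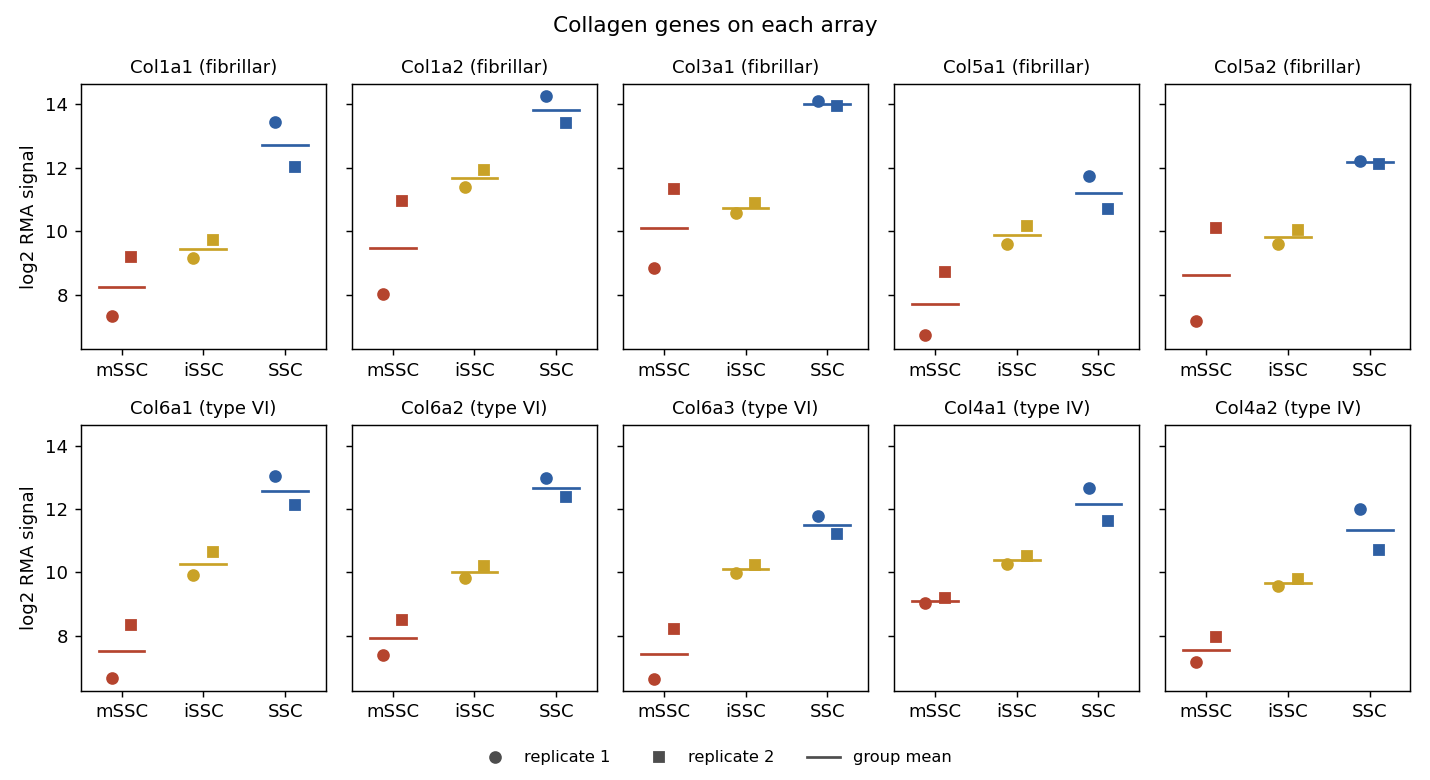
Log2 RMA signal (y axis) of the 10 collagen genes in mSSC, iSSC and SSC (x axis), with circles for replicate 1, squares for replicate 2 and lines for the group means. Both SSC arrays lie above both iSSC arrays for all 10 genes, and mSSC replicate 1 is the lowest of the 6 arrays for all 10.

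Col1a1 and Col1a2 encode the chains of type I collagen, the main fibril protein of skin, bone and tendon. Col1a1 was at 7.32 and 9.17 in mSSC, 9.16 and 9.71 in iSSC, and 13.44 and 12.01 in SSC. Its second mSSC array reached the iSSC level, and both SSC arrays stood above all others. Col1a1 fell by 4.48 ± 0.70 in mSSC against SSC (22.3-fold, adjusted p = 0.0092). Col1a2 was at 8.02 and 10.95 in mSSC, 11.40 and 11.94 in iSSC, and 14.27 and 13.40 in SSC, and the 3 kinds did not overlap. Col1a2 changed by -4.35 ± 0.89 in mSSC against SSC (adjusted p = 0.021), close to its partner chain.

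Col3a1 encodes the chain of type III collagen, which runs beside type I in soft tissues. It was at 8.84 and 11.33 in mSSC, 10.57 and 10.88 in iSSC, and 14.10 and 13.95 in SSC. Here the second mSSC array was above both iSSC arrays while the first was below them. Col3a1 changed by -3.94 ± 0.73 in mSSC against SSC (adjusted p = 0.016). The 250 bases before the RefSeq start sites of Col1a2 and Col3a1 (build GRCm38.p6) are shown because these genes move together on the arrays while their promoters differ in base composition. The windows are chr6:4505368-4505617 and chr1:45311288-45311537, both on the plus strand, 62.0% and 35.2% G or C. Capitals mark the motifs that were searched on both strands. They are the CCAAT box, spelled as its name, the GC box with the letters GGGCGG, and a TATA box with the letters TATAAA.
Col1a2: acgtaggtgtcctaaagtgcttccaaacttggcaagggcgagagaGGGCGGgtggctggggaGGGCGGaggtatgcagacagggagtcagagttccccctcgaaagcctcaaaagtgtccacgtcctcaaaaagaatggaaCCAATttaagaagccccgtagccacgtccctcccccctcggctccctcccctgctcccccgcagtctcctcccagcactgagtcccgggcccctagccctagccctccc
Col3a1: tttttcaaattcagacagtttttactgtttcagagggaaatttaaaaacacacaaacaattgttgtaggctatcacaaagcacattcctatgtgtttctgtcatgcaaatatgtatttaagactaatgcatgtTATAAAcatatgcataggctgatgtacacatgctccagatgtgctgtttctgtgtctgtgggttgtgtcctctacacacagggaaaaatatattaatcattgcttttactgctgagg

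Of all 32851 RefSeq windows of this length 33.8% hold CCAAT, 32.7% hold GGGCGG and 12.4% hold TATAAA. RefSeq windows were found for 8 of the 10 collagens, in 9 entries, of which 3 hold CCAAT, 5 hold GGGCGG and 1 holds TATAAA. No motif was shared by the windows of all these genes.

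Col5a1 and Col5a2 encode chains of type V collagen, a minor fibril component that starts fibril growth and limits fibril width. Col5a1 was at 6.72 and 8.70 in mSSC, 9.59 and 10.18 in iSSC, and 11.74 and 10.70 in SSC, with no overlap between the kinds. It changed by -3.51 ± 0.67 in mSSC against SSC (adjusted p = 0.017). Col5a2 was at 7.15 and 10.09 in mSSC, 9.60 and 10.04 in iSSC, and 12.21 and 12.13 in SSC. Its second mSSC array was again above both iSSC arrays. Col5a2 changed by -3.55 ± 0.85 in mSSC against SSC (adjusted p = 0.035). Col5a2 lies next to Col3a1 on chromosome 1, 24624 bases away in RefSeq with 0 protein-coding genes between.

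The type VI chains were 16.7-fold to 33.4-fold lower in mSSC than in SSC, with Col6a1 and Col6a2 the largest changes of the 10. They form a trimer of different chains that binds cells and other matrix proteins, and mutations in these genes cause muscle disease in humans. Col6a1 was at 6.68 and 8.34 in mSSC, 9.92 and 10.64 in iSSC, and 13.04 and 12.11 in SSC. It changed by -5.06 ± 0.60 in mSSC against SSC (adjusted p = 0.0041). Col6a2 was at 7.39 and 8.49 in mSSC, 9.84 and 10.20 in iSSC, and 12.97 and 12.37 in SSC. Its change was -4.73 ± 0.41 (adjusted p = 0.0018). Col6a3, the longest of these chains, was at 6.65 and 8.21 in mSSC, 9.99 and 10.22 in iSSC, and 11.77 and 11.22 in SSC. Its change was -4.06 ± 0.51 (adjusted p = 0.0048). For all 3 type VI chains the kinds stood fully apart in the order mSSC, iSSC, SSC from low to high. The 250 bases before the Col6a1 start (chr10:76726045-76726294, minus strand, GRCm38.p6, 56.0% G or C) are shown beside the fibrillar promoters because this gene had the largest change, and they hold none of the motifs searched.
Col6a1: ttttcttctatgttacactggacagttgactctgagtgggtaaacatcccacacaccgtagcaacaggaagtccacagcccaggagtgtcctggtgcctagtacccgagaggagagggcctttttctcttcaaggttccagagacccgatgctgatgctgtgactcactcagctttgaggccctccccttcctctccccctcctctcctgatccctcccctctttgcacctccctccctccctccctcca

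Col4a1 and Col4a2 encode the chains of the common basement membrane collagen. Their genes are read in opposite directions from a shared promoter region on chromosome 8, where the RefSeq gene spans overlap by 85 bases. The start sites used here were 21 bases apart (GRCm38.p6). Col4a1 was at 9.04 and 9.18 in mSSC, 10.27 and 10.51 in iSSC, and 12.66 and 11.63 in SSC. It changed by -3.03 ± 0.36 in mSSC against SSC (adjusted p = 0.0039). Col4a2 was at 7.16 and 7.96 in mSSC, 9.57 and 9.79 in iSSC, and 11.99 and 10.70 in SSC. Its change was -3.79 ± 0.47 (adjusted p = 0.0048). Both genes had fully separate kinds, and their mSSC arrays lay closer together than their SSC arrays.

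By class, the median change in mSSC against SSC was -3.94 over the 5 fibrillar genes, -4.73 over the 3 type VI genes and -3.41 over the 2 type IV genes. The range of the fibrillar genes overlapped those of both other classes, and the difference between classes was not tested. On the mSSC and SSC arrays alone, 9 of the 10 genes and 10.8% of all genes passed the test. On all 6 arrays 18.8% of all genes passed. The gene lost was Col5a2 (limma adjusted p = 0.068). With 1 SSC array left out the fit holds no scatter between SSC arrays, so changes alone are given. Over the 10 genes the median change was -3.78 without SSC replicate 1 and -4.38 without SSC replicate 2, with all 10 lower in both.

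On the brightest probe set of each gene, the 2 mSSC arrays differed most in the fibrillar genes. Signals of replicate 2 exceeded those of replicate 1 for all 10 collagens, and by at least 2-fold for 8 of them. At least 2-fold higher signals in mSSC replicate 2 were found for 4.52% of all genes, and at least 2-fold higher signals in replicate 1 for 3.19% of all genes and none of the 10. At least 4-fold higher signals in replicate 2 were found for Col1a2, Col3a1 and Col5a2 and for 1.03% of all genes. The fibrillar genes were 3.61-fold to 7.69-fold higher in replicate 2, the type VI genes 2.15-fold to 3.16-fold, and the type IV genes 1.10-fold to 1.75-fold. On these probe sets the ranges of the 3 classes did not overlap, but on others they did, as given below. Among all 18194 genes 0.324% had a larger such difference than Col5a2 and 0.330% a larger one than Col1a2. For the type IV genes these shares were 6.46% for Col4a2 and 27.4% for Col4a1. This is 1 array against another, with no test.

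**Figure D2:**
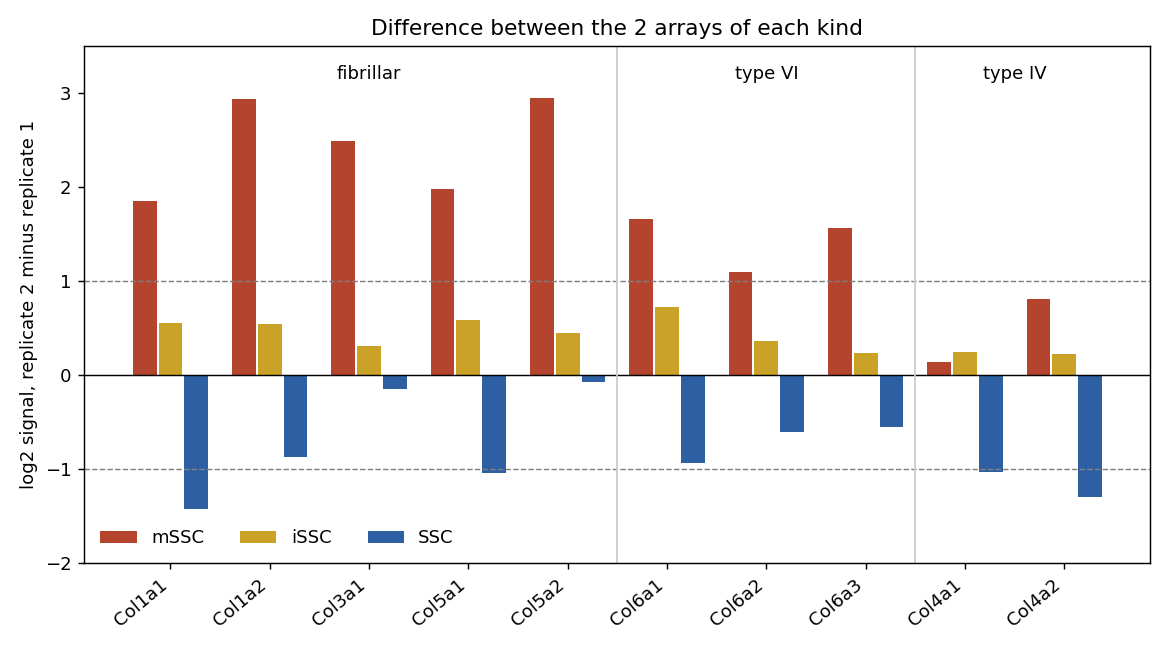
Difference of log2 RMA signal between replicate 2 and replicate 1 (y axis) for each collagen gene (x axis), with a bar for each of mSSC, iSSC and SSC and dashed lines at a 2-fold difference. The mSSC bars run from 1.85 to 2.94 for fibrillar, 1.10 to 1.66 for type VI and 0.14 to 0.81 for type IV genes.

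On the brightest probe sets the arrays of the other kinds also differed in 1 direction for all 10 genes. The class medians ran fibrillar, type VI, type IV from high to low in iSSC (0.54, 0.37 and 0.23), as in mSSC, but in SSC they were -0.87, -0.60 and -1.16. Replicate 2 of iSSC was above replicate 1 by 0.22 to 0.72, so none of the 10 reached 2-fold, against 0.638% of all genes in this direction and 0.984% in the other. Replicate 1 of SSC was above replicate 2 for all 10, by 1.05-fold to 2.69-fold, and by at least 2-fold for 4 genes, against 5.55% of all genes. The reverse, 2-fold higher in SSC replicate 2, was seen for none of the 10 and for 4.7% of all genes. Other probe sets of Col3a1 and Col5a2 ran the other way in the SSC arrays, at 10.15 and 11.24 for Col3a1 and at 8.77 and 9.28 for Col5a2. The 4 genes at 2-fold or more were Col1a1 (2.69-fold), Col4a2 (2.44-fold), Col5a1 (2.06-fold) and Col4a1 (2.04-fold). Both type IV genes were thus among the more uneven between the SSC arrays. Between the mSSC arrays Col4a1 was nearly level (1.10-fold), while Col4a2 differed by 1.75-fold.

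Other probe sets gave the same direction in mSSC against SSC as the brightest one for all 9 additional probe sets of 7 of these genes. The difference between the mSSC arrays was less uniform. The second probe sets of Col1a2 and Col3a1 had 3.14 and 2.58, near the 2.94 and 2.49 of the main ones. The other probe sets of Col5a1 had 0.33 and 0.80 against 1.98, and that of Col6a2 had 0.41 against 1.10. The third probe set of Col1a2 was at or under the lower quartile on 4 arrays and differed by -0.15. The other probe set of Col1a1 had 1.46 and that of Col5a2 had 1.78. For Col1a1, Col1a2 and Col5a1, whether the fibrillar difference exceeded that of the type VI genes thus depended on the probe set. The other probe sets of Col5a1 and Col6a2 lay within the 0.14 to 0.81 of the type IV genes.

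Each mSSC array alone was below the SSC mean for all 10 genes. Replicate 1 was lower by a median difference of -5.10 (range -5.89 to -3.10) and replicate 2 by -3.12 (range -4.23 to -2.08). In replicate 1 the median was -5.19 for fibrillar, -5.28 for type VI and -3.65 for type IV genes. In replicate 2 it was -2.69 for fibrillar, -4.18 for type VI and -3.17 for type IV genes. In replicate 2 the range of the fibrillar genes, -3.55 to -2.08, overlapped that of the type VI genes, -4.23 to -3.28.

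Setting iSSC against SSC asks how intermediate cultures differ from unipotent ones, and this comparison shares its SSC arrays with the comparison above. Both iSSC arrays were below both SSC arrays for all 10 collagens, as they were for 17.7% of all genes. Only Col6a2 passed the test, with a change of -2.65 ± 0.41 (6.26-fold lower, adjusted p = 0.039), where 1.87% of all genes were called lower and 2.09% in either direction. The change of Col6a2 missed the limma threshold when probe sets were averaged (adjusted p = 0.051), where 0.159% of all genes passed. It also missed it with a term for the replicate number (adjusted p = 0.069), where 0.813% of all genes passed. Leaving out 1 of the 4 iSSC and SSC arrays gave changes of -2.95 to -2.34 for Col6a2. These fits hold no scatter within the group left with 1 array, so they do not show that its call is stable. On the brightest probe sets the largest differences were in Col3a1 (-3.30 ± 0.73, adjusted p = 0.091) and Col1a1 (-3.29 ± 0.70, adjusted p = 0.081). The smallest was in Col5a1 (-1.33 ± 0.67, adjusted p = 0.39). With probe sets averaged, Col1a1 was at -2.51, behind Col3a1 (-3.82), Col6a2 (-2.86) and Col5a2 (-2.77), and Col6a3 (-1.39) was the smallest. The type IV genes were at -1.75 ± 0.36 for Col4a1 (adjusted p = 0.072) and -1.67 ± 0.47 for Col4a2 (adjusted p = 0.16). The wide spread of the mSSC arrays enters these errors. With the iSSC and SSC arrays alone 4 of the 10 and 2.47% of all genes passed, Col1a1 (adjusted p = 0.043), Col3a1 (0.028), Col5a2 (0.029) and Col6a2.

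The comparison of mSSC with iSSC asks what separates the multipotent from the intermediate cultures. All 3 type VI genes fell in mSSC, Col6a1 by 2.77 ± 0.60 (adjusted p = 0.026), Col6a3 by 2.67 ± 0.51 (adjusted p = 0.017) and Col6a2 by 2.08 ± 0.41 (adjusted p = 0.020). Col4a2 fell by 2.12 ± 0.47 (adjusted p = 0.028), while Col4a1 was at -1.28 ± 0.36 (adjusted p = 0.056). With a term for the replicate number Col4a2 missed the threshold (adjusted p = 0.052). Lower values were called for 9.6% of all genes. None of the 5 fibrillar genes passed the limma test, 2 of them having an unadjusted p under 0.05, Col5a1 (-2.17 ± 0.67) and Col1a2 (-2.19 ± 0.89). For 7 genes both mSSC arrays were below both iSSC arrays, against 33.2% of all genes, and the 3 exceptions were Col1a1, Col3a1 and Col5a2.

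These changes depended on the mSSC array. With 1 mSSC array left out the fit holds no scatter between mSSC arrays, so changes alone are given. Without mSSC replicate 2 they were -3.65 for Col1a2, -3.16 for Col5a1, -2.67 for Col5a2 and -1.89 for Col3a1. Without mSSC replicate 1 they were -0.72, -1.19, 0.27 and 0.61, with the sign turned for Col5a2 and Col3a1. Over the 10 genes the median change was -2.65 without mSSC replicate 2 and -1.20 without mSSC replicate 1. Without iSSC replicates 1 and 2 in turn it was -2.25 and -1.89. Those fits hold no scatter between iSSC arrays, so they do not show that the calls of the type VI genes and Col4a2 are stable. Over the fibrillar genes the median change in mSSC against iSSC was -1.20, smaller in size than their median difference of 2.49 between the mSSC arrays.

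Most fibroblast markers fell with the collagens in mSSC against SSC, but few passed in the other comparisons. Of 17 measured fibroblast markers other than the collagens, 11 fell in mSSC against SSC, where 10.6% of all genes were called lower. The other 6 did not pass, and the median change of the 17 was -2.12. In mSSC against iSSC 1 of the 17 was called lower and 16 did not pass, against 9.6% of all genes called lower. Their median change there was -1.08. In iSSC against SSC none passed in limma, 6 having an unadjusted p under 0.05. Their summed linear signal was 13477 and 18622 in mSSC, 21799 and 29215 in iSSC, and 60305 and 38176 in SSC. The summed signal of the 10 collagens was 2163 and 8449 in mSSC, 11226 and 15180 in iSSC, and 87039 and 53791 in SSC. Both sums gave the same order of the 6 arrays. Between the mSSC arrays the fibroblast markers had a median difference of 1.60, with 10 of 17 at least 2-fold higher in replicate 2. The list was uneven, since Vim, the intermediate filament of mesenchymal cells, was at 12.32 and 12.02 in mSSC. Lum was at 7.79 and 11.37 in mSSC, 7.72 and 7.58 in iSSC, and 8.69 and 10.66 in SSC. Its change in mSSC against SSC was -0.10 ± 1.16. Dcn changed by -1.87 ± 0.69 and did not pass (limma adjusted p = 0.11). Fap, a surface protease of activated fibroblasts, was at or near background in mSSC, at 3.87 and 3.99, and in iSSC, at 4.28 and 3.54, against 6.00 and 7.66 in SSC. The part of fibroblast RNA in the collagen results was not tested.

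**Figure D3:**
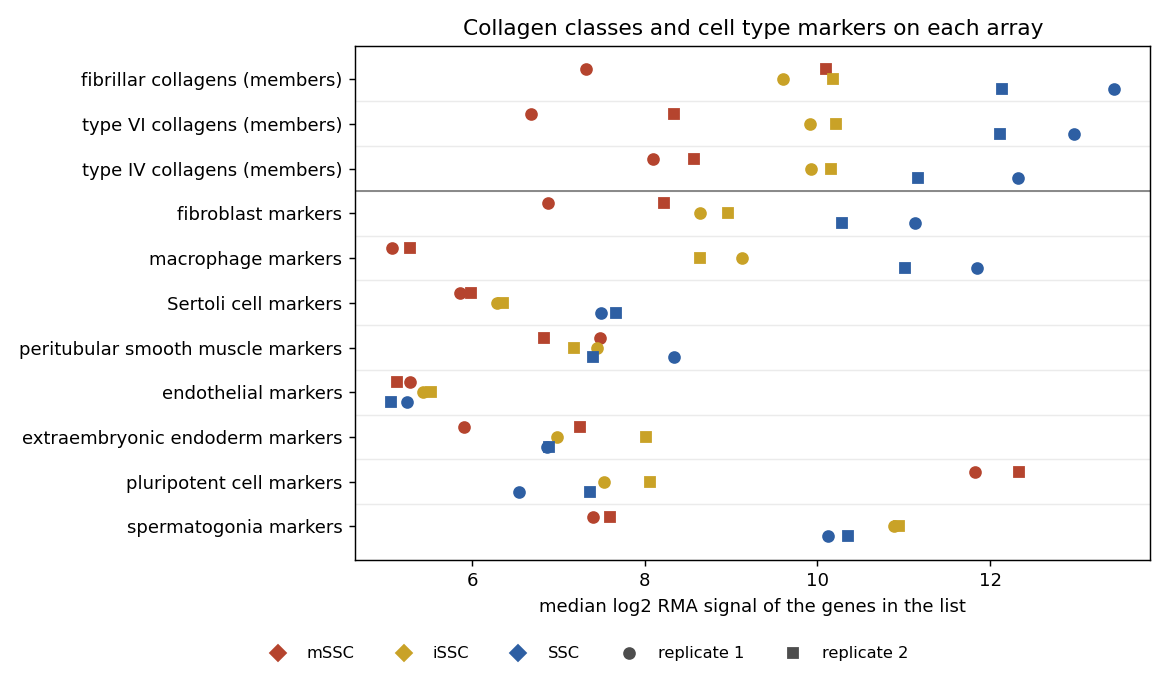
Median log2 RMA signal (x axis) of the genes in each collagen class and marker list (y axis), with red mSSC, yellow iSSC and blue SSC symbols, circles for replicate 1 and squares for replicate 2. The fibroblast list without collagens had medians of 6.88 and 8.22 in mSSC, against 8.63 and 8.96 in iSSC and 11.13 and 10.28 in SSC, while the macrophage list had 5.07 and 5.28 in mSSC.

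Markers of other supporting cells fell as well, and their list medians lay closer together on the mSSC arrays. All 10 macrophage markers fell in mSSC against SSC and 6 of 10 fell in iSSC against SSC. Their summed signal was 641 and 1288 in mSSC, 17956 and 10399 in iSSC, and 51172 and 36507 in SSC. The macrophage complement gene C1qb and the leukocyte surface gene Ptprc were at or under the lower quartile on both mSSC arrays. Of 10 Sertoli cell markers 8 fell in mSSC, with sums of 1250 and 1086 in mSSC, 4448 and 2126 in iSSC, and 11533 and 14676 in SSC. Of 7 peritubular smooth muscle markers 4 fell, with sums of 1464 and 1296 in mSSC, 3848 and 2221 in iSSC, and 24369 and 5090 in SSC. The median difference between mSSC replicates 2 and 1 was 0.01 for macrophage, -0.14 for Sertoli and -0.27 for peritubular markers. Single genes departed from this, with the lysosomal macrophage gene Cd68 at 8.16 and 9.84 in the mSSC arrays and the smooth muscle actin gene Acta2 at 7.49 and 8.65. Of 8 endothelial markers 1 fell and 2 rose, and of 8 extraembryonic endoderm markers 2 fell and 1 rose, the endoderm list having a median difference of 0.76 between the mSSC arrays. The part of these cells in the collagen results was not tested.

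The other collagens were mixed. Of 31 other collagen genes measured, 8 fell in mSSC against SSC, 2 rose and 21 did not pass, with a median of -0.16. Col4a5, a chain of the specialised type IV network of kidney and other basement membranes, was at 3.71 and 4.91 in mSSC, 7.56 and 7.82 in iSSC, and 9.26 and 8.91 in SSC. It changed by -4.78 ± 0.41 (adjusted p = 0.0016), with mSSC replicate 1 under the lower quartile of its array, so the size of this decrease is a lower limit. Col11a1, a fibril chain of cartilage, was at 4.64 and 4.60 in mSSC, 6.23 and 6.69 in iSSC, and 8.42 and 8.30 in SSC. Its mSSC arrays were level but lay close to the lower quartiles of those arrays (4.38 and 4.32). The contrast with the type I, III and V chains, which were brighter, is therefore limited. Col11a1 fell in all 3 comparisons, by 3.74 ± 0.23 in mSSC against SSC (adjusted p = 0.00073) and by 1.90 ± 0.23 in iSSC against SSC (adjusted p = 0.029). Among the fibril-associated collagens, which decorate fibril surfaces, Col14a1 (-2.92 ± 0.45), Col12a1 (-1.77 ± 0.32) and Col16a1 (-1.40 ± 0.24) fell in mSSC against SSC, Col14a1 being under the lower quartile in mSSC replicate 1. The genes that rose were Col9a3 (0.82 ± 0.20) and Col26a1 (1.21 ± 0.28). The membrane-spanning collagen Col13a1 was at 6.65 and 6.43 in mSSC, 8.67 and 8.90 in iSSC, and 7.41 and 7.25 in SSC. It was the collagen that rose in iSSC against SSC, by 1.46 ± 0.22 (adjusted p = 0.036).

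The genes that build collagen inside the cell had a smaller median change than the 10 collagens, a difference that was not tested. Of 19 enzymes and chaperones of the endoplasmic reticulum 6 fell in mSSC against SSC and 13 did not pass, with a median of -0.87 and a median difference of 0.01 between the mSSC arrays. Serpinh1, the chaperone of procollagen, was at 9.85 and 9.86 in mSSC, 10.36 and 11.12 in iSSC, and 11.64 and 11.41 in SSC. It changed by -1.67 ± 0.29 (adjusted p = 0.013), and its mSSC arrays were level. P3h3 (-2.29 ± 0.44), a prolyl hydroxylase family member, and Plod1 (-1.01 ± 0.25), a lysyl hydroxylase, also fell.

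Outside the cell, 5 of 10 genes for procollagen processing and cross-linking fell and 1 rose in mSSC against SSC. Bmp1, the protease that removes the procollagen end, changed by -2.31 ± 0.35 and the cross-linking enzyme Loxl1 by -3.63 ± 0.67. Lox, the founding member of that enzyme family, was at 7.61 and 11.16 in mSSC, 11.24 and 11.46 in iSSC, and 13.35 and 12.02 in SSC. Its mSSC arrays differed more than those of any of the 10 collagens, and its change of -3.30 ± 1.08 did not pass (adjusted p = 0.083). Pcolce2, an enhancer of procollagen cleavage, rose by 3.86 ± 0.52 (adjusted p = 0.0061). Of 9 fibril partners 2 fell, the matrix proteins Postn (-2.98 ± 0.56) and Sparc (-2.32 ± 0.44), and 6 of the 9 were at least 2-fold higher in mSSC replicate 2 than in replicate 1.

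**Figure D4:**
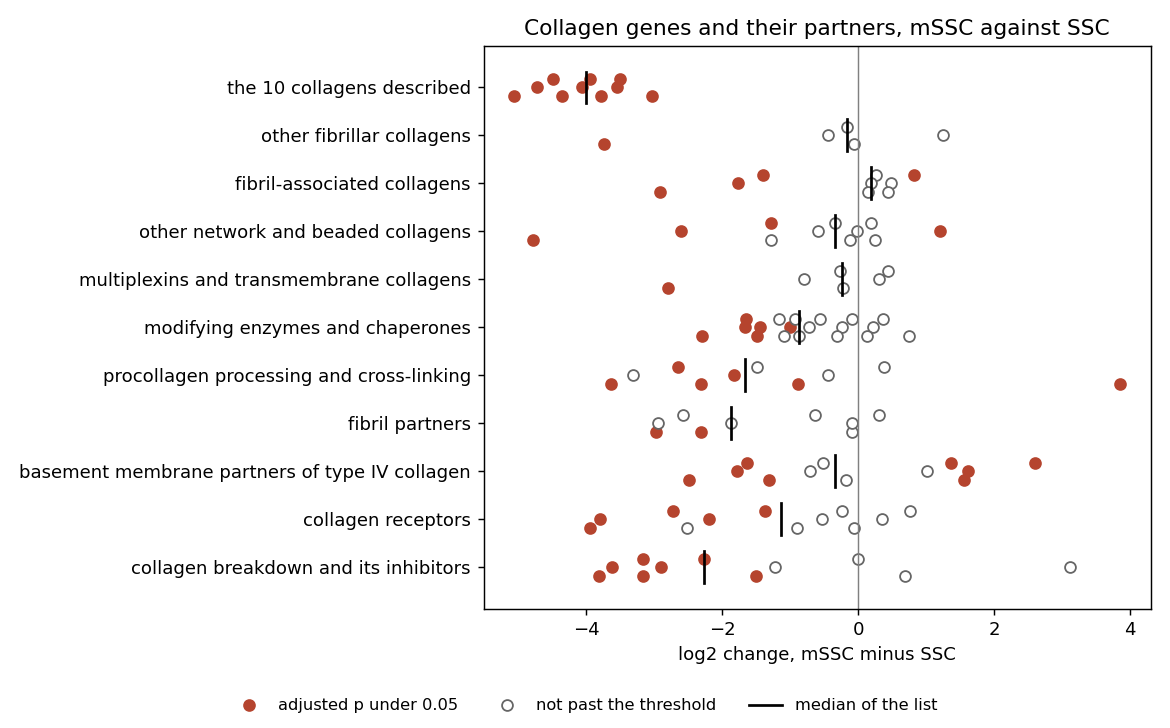
Log2 change in mSSC minus SSC (x axis) of each gene, by list (y axis), with filled points at an adjusted p under 0.05, open points for the rest and a black line at the list median. The medians were -4.0 for the 10 collagens, -0.87 for modifying enzymes, -1.66 for processing and cross-linking and -0.34 for basement membrane partners.

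Partners of type IV collagen in basement membranes split. Of 12 measured, 4 fell and 4 rose in mSSC against SSC. The laminin chains Lama1 (2.61 ± 0.45), Lamc1 (1.56 ± 0.35) and Lama5 (1.37 ± 0.21) rose, as did the heparan sulfate proteoglycan Agrn (1.62 ± 0.27). The linker Nid1 (-1.63 ± 0.27) and the laminin chains Lama4 (-2.49 ± 0.53), Lama2 (-1.77 ± 0.36) and Lamb1 (-1.32 ± 0.32) fell. Of 12 collagen receptors 5 fell, led by Ddr1 (-2.19 ± 0.25), a receptor tyrosine kinase, Mrc2 (-2.72 ± 0.37), which takes collagen into the cell, and Antxr2 (-3.95 ± 0.58). Of 11 genes for collagen breakdown and its inhibitors 7 fell, among them the inhibitor Timp3 (-3.62 ± 0.37) and the proteases Mmp2 (-2.27 ± 0.38) and Mmp14 (-3.16 ± 0.54). In iSSC against SSC Timp3 was the gene of these pathway lists, collagens aside, that passed, at -3.04 ± 0.37 (adjusted p = 0.029).

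The 10 collagens followed each other closely over the 6 arrays, with a Pearson r of 0.857 to 0.990 over the 45 pairs and a median of 0.953. The points share arrays and groups, so these values are a description. Among 3347 other genes with a range of at least 2 log2 units, the profile of the fibrillar class was most like those of Tbc1d24 (r = 0.996), Ak3 (0.995), Mdfic (0.994) and Gask1b (0.994). The type VI profile was most like those of Fndc3b (r = 0.998), Casp12 (0.996), Creb3l2 (0.996) and the lysosomal protease gene Ctsb (0.995). The type IV profile was most like those of Mrc2 (r = 0.994), Fam122a (0.994), Bmp1 (0.994) and Fam102b (0.993).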

How the data were processed

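The deposited values are log2 signals, for which the submitters' processing notes name RMA, with no version given in the sources used here. RMA usually sets arrays to a common distribution, so a change in total RNA per cell is not measured. RNA (10 µg, per the labels' protocols) was amplified before hybridisation. Of 45101 probe sets, 34958 had 1 symbol, 932 several and 9211 none. The probe set with 1 symbol and the highest mean over the 6 arrays stood for each of 18194 genes. Group means were fitted with limma 3.58.1 in R 4.3.3 on all 6 arrays (3 residual degrees of freedom), 2-sided, with Benjamini-Hochberg adjustment over all genes and a threshold of 0.05, after a test on simulated data. The collagen genes and lists were chosen with earlier results of these data known. Genes named are the 10 collagens, the list genes with the smallest p in mSSC against SSC or called in iSSC against SSC, markers with the highest means, and the 4 profiles most like each class. Some other list genes, such as Lox, Lum and the macrophage genes near background, were named after their values were seen. Promoters came from RefSeq (GRCm38.p6).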

Additional observations from a re-analysis of the deposited data

How the results depend on the processing

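With 2 arrays per kind, 1 array can decide a call. Direction was kept in all alternatives for the 10 collagens in mSSC against SSC and in iSSC against SSC. In mSSC against iSSC it turned for Col3a1 (0.61) and Col5a2 (0.27) without mSSC replicate 1, against -1.89 and -2.67 without mSSC replicate 2. Of 10 genes called in mSSC against SSC, 6 passed a test for a change above 2-fold, as did 2.83% of all genes. Leaving out 1 array gave a median change of -5.10 to -3.12 in mSSC against SSC. It gave -2.51 to -1.78 in iSSC against SSC and -2.65 to -1.20 in mSSC against iSSC. In iSSC against SSC, limma called 4 of the 10 and 2.47% of all genes on the 4 arrays alone. With probe sets averaged it called 0 (10 at an unadjusted p under 0.05) and 0.159% of all genes. Above 2-fold it called 0 (5 unadjusted) and 0% of all genes. In mSSC against iSSC, 0 passed above 2-fold (4 unadjusted), against 2.65% of all genes. Same-numbered arrays deviated together with correlations of 0.171, 0.068 and 0.120, so the numbers were not taken as pairs. With the replicate number as a block, limma called 10 of the collagens and 18.8% of all genes in mSSC against SSC. In iSSC against SSC it called 0 (8 unadjusted) and 0.813% of all genes. In mSSC against iSSC it called 3 and 17.5% of all genes, Col4a2 being lost (adjusted p = 0.0523). Over the alternatives 2.83% to 24% of the genes tested were called in mSSC against SSC, 0% to 2.83% in iSSC against SSC and 2.65% to 22.6% in mSSC against iSSC. The highest shares came with dim genes left out and are shares of the genes kept. Centring arrays on their medians moved the median of all genes by 0.26 in mSSC against SSC. The cause of the other moves was not tested.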
